A study of Mus musculus with 18 samples.

Results

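The TGF-beta and BMP receptors and Smads are the 10 mouse genes Tgfbr1, Bmpr1a, Tgfbr2, Bmpr2, Acvr2b, Smad2, Smad3, Smad5, Smad4 and Smad7, and the chimeric reads that named miRNAs on their transcripts were described here. A read was counted for a gene when the midpoint of its target part lay within the gene's RefSeq span on the mm10 genome. The 10 genes, of 20927 RefSeq genes with at least 1 read, held 2501 of 1153545 chimeric reads (0.217%). Of these reads, 6 lay on the strand opposite to the gene.

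The reads come from CLEAR-CLIP, in which cells are irradiated with ultraviolet light, Argonaute 2 is precipitated, and the miRNA it holds is ligated to the RNA fragment beside it, so that 1 read names a miRNA and its target. Cultured mouse keratinocytes were studied in 18 libraries of 2 sets. Set 1 held 3 libraries of miR-200 double knockout (DKO) keratinocytes and 6 control libraries of K14-Cre only keratinocytes, which carry a Cre recombinase under the promoter of keratin 14, a basal keratinocyte gene. Set 2 held 3 libraries of DKO keratinocytes, 3 of miR-200 inducible keratinocytes given 3 ug/ml doxycycline for 24 hours (induced), and 3 of the inducible keratinocytes without induction (uninduced control). E-low calcium medium was used throughout, with 1 dish of confluent cells a library. In set 2 the DKO cells were therefore compared with the inducible line rather than with K14-Cre only cells, and the labels give no cells that received doxycycline without the inducible construct. The labels do not say whether the libraries of a group came from separate animals or cultures, or what age or strain the cells had.

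The libraries of a group are pooled in the deposited data, so each group was 1 sample, no test between groups was possible, and every interval below is an exact 95% interval that covers counting error only. The pools held 48662 reads (set 1 DKO), 161692 (set 1 control), 210003 (set 2 DKO), 419117 (set 2 induced) and 314071 (set 2 uninduced control). The miR-200 family made up 0.160% of reads in the set 1 DKO pool, against 3.20% in its control, and 0.360% in the set 2 DKO pool and 9.04% in the induced pool, against 6.68% in the uninduced control. Set and sequencing run coincide, and 9 miRNA names, miR-709 among them, made up 27.7% of set 1 DKO and 37.2% of set 1 control reads but 3.12% to 3.52% of reads in the set 2 pools. Between 5.24% and 17.4% of a pool's reads had the same position, strand, miRNA and barcode as a read of another pool of the set. Genes that define basal keratinocytes held 134 to 965 reads a pool and those of differentiated keratinocytes 1 to 3. Of the other cell types' lists, the simple epithelium list held 2 to 50 reads, the fibroblast list 0 to 12 (Col1a1, Col1a2, Col3a1 and Dcn at 0), the melanocyte list 5 to 40 (Dct and Mlana at 0), the endothelial list 1 to 9 (Cdh5 at 0) and the immune list 0 or 1 (Ptprc at 0). Over all pools, most reads of the non-immune lists lay on Epcam (87), Pdgfra (22), Pmel (62), Mitf (54) and Kdr (21).

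Ligands of the TGF-beta and BMP family bind a type II receptor, which phosphorylates a type I receptor. The type I receptor then phosphorylates receptor-regulated Smads, which join Smad4 and enter the nucleus to change transcription. In epidermis TGF-beta signaling is known for restraining keratinocyte proliferation, and BMP signaling for its part in hair follicle formation and differentiation. A miRNA pairs with targets mainly through its seed, bases 2 to 8, and usually lowers the target's stability or translation. A share of chimeric reads depends on the amount of the target RNA and of the miRNA as well as on their contact, and fewer cells of a type and less RNA per cell cannot be told apart in these pools.

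The miRNAs on which the results turn are shown first, grouped by seed, because the sites on these genes are described by the seeds that met there. Mature sequences are from RefSeq (GRCm38.p6), 5′ to 3′, with the seed in capitals. The miR-200 family, which the DKO cells lack and the inducible cells gain, holds a pair of seeds that differ by U4C (miR-200b base, position from the 5′ end, miR-141 base).
miR-200b-3p: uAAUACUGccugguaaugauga
miR-200c-3p: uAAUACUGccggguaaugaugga
miR-429-3p: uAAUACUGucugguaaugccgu
miR-200a-3p: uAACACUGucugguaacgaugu
miR-141-3p: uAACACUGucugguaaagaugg

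The miR-17 family led on Tgfbr2, and miR-301a, whose seed shares the 5-base run AGUGC with that of miR-17, was ligated at the same place.
miR-17-5p: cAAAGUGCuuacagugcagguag
miR-20a-5p: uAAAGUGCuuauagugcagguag
miR-93-5p: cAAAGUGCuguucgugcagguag
miR-106b-5p: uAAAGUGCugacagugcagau
miR-301a-3p: cAGUGCAAuaguauugucaaagc
A second pair met at that place as well. The seeds of miR-182 and miR-96 share UUGGCA and differ by A8C.
miR-182-5p: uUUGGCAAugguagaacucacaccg
miR-96-5p: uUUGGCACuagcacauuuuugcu
The remaining sequences are those that led on the other receptors and Smads, shown as 1 member a seed.
let-7a-5p: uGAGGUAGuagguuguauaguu
miR-21a-5p: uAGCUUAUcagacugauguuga
miR-31-5p: aGGCAAGAugcuggcauagcug
miR-125b-5p: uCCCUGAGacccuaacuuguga
miR-23a-3p: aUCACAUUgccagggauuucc

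The 10 genes together took between 0.185% and 0.226% of the chimeric reads of a pool. They held 90 reads in the set 1 DKO pool (0.185%, 0.149 to 0.227) and 303 in its control (0.187%, 0.167 to 0.210). In set 2 they held 463 reads in the DKO pool (0.220%, 0.201 to 0.241), 935 in the induced pool (0.223%, 0.209 to 0.238) and 710 in the uninduced control (0.226%, 0.210 to 0.243). Within each set the intervals overlap. Per 10 kb of gene span, introns included, reads over all pools were highest for Smad7 (107) and Tgfbr2 (53.8), followed by Smad2 (38.4), Smad5 (37.8), Tgfbr1 (33.4), Bmpr1a (33.1), Acvr2b (28.8), Smad4 (24.9), Smad3 (23.0) and Bmpr2 (21.8).

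**Figure D1:**
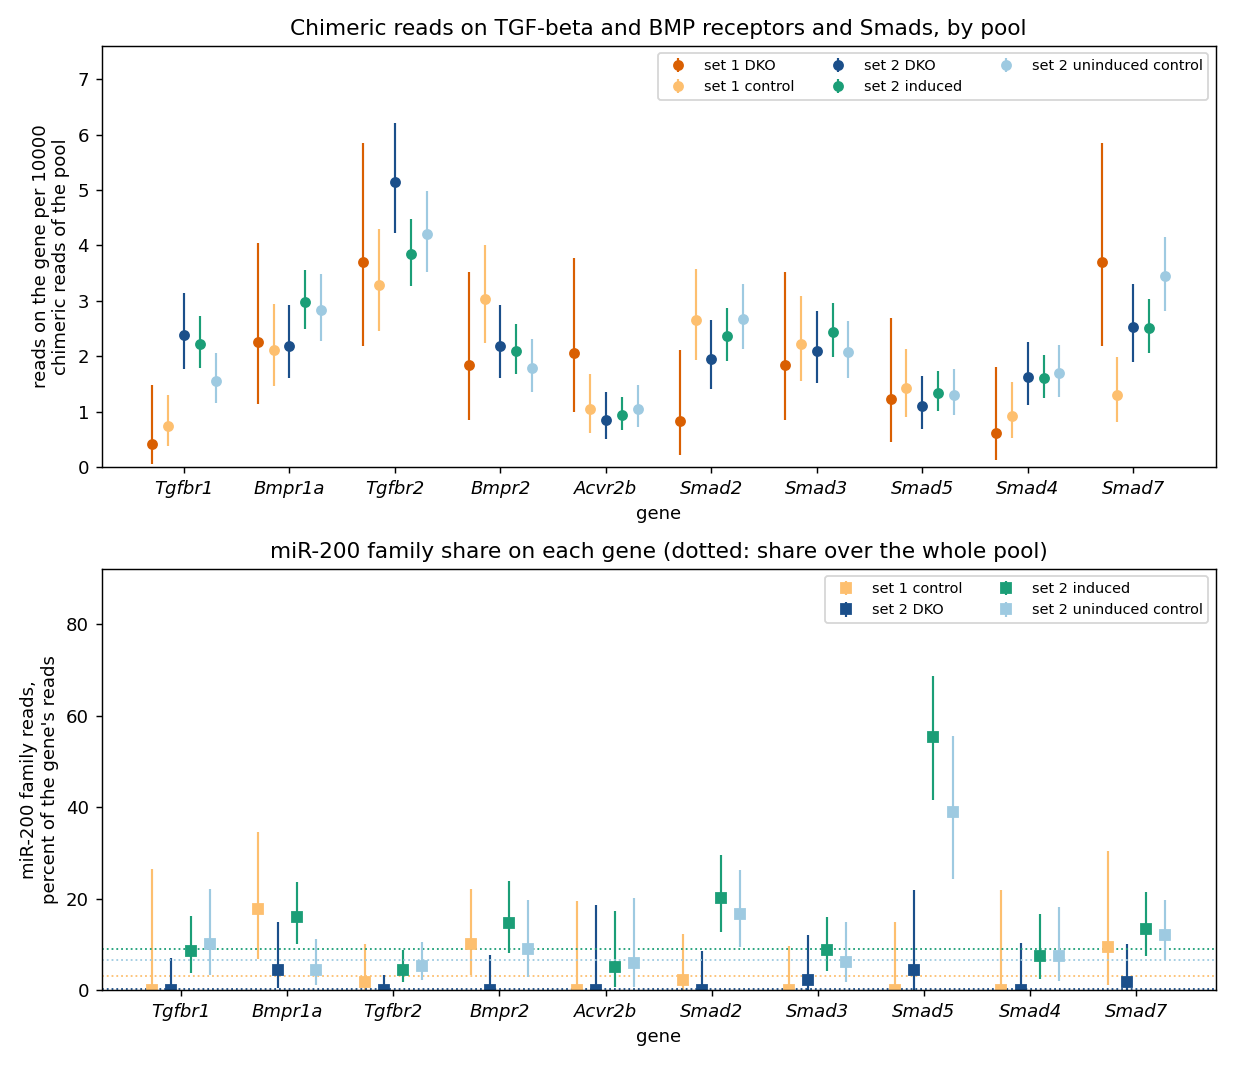
Upper panel: reads on each gene per 10000 chimeric reads of the pool; lower panel: percent of a gene's reads whose miRNA is of the miR-200 family, without the set 1 DKO pool, which held none. Points are pooled libraries, bars exact 95% counting intervals and dotted lines the share over the whole pool. Tgfbr2 lies at 3.28 to 5.14 reads per 10000, and Smad5 stands highest in the lower panel, at 55.4% of induced and 39.0% of uninduced reads.

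The type I receptors are the kinases that phosphorylate Smads. On Tgfbr1 (chr4:47353222-47414926), the type I receptor for TGF-beta, let-7 led with 68 of 206 reads (33.0%): 0 in the set 1 DKO pool and 2 in its control, and 20 in the set 2 DKO pool, 28 in the induced pool and 18 in the uninduced control. let-7 made up 36.7% (23.4 to 51.7) of uninduced Tgfbr1 reads, against 9.80% over that pool, and 43 of 3462 genes with at least 20 reads there had a higher let-7 share. The let-7 reads gathered near the gene's end: the site chr4:47414303-47414692 held 97 reads from all 5 pools, as 80 distinct combinations of position, strand and miRNA over all pools (called chimeras below), of which 44 were let-7 (55.0%, 43.5 to 66.2). A second site, chr4:47411396-47411491, held 13 chimeras of 8 families, 5 of them with miR-203, an epidermal miRNA. Next by the mean share over pools came miR-125a/b with 7 reads and miR-182 with 1 read, ranked by the small set 1 DKO pool. Of the gene's reads, 38 lay where a noncoding RNA, Gm32435, overlaps it.

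Bmpr1a (chr14:34411061-34503336), a type I receptor for BMPs that hair follicle differentiation requires in mice, showed no leading miRNA of that kind. By mean share over the pools its top families were miR-125a/b with 18 of 305 reads, miR-31 with 31 and let-7 with 25; the miR-200b seed had 22 reads. miR-31 held 16.9% of uninduced Bmpr1a reads (9.75 to 26.3), against 11.1% over the pool, so that the interval included the pool's share. The site with most chimeras, chr14:34414369-34414459, held 17 chimeras of 12 families, none with over 2. The next, chr14:34411115-34411211, held 8 of 5 families, led by miR-19a/b with 3. Grouped for 1 family alone, targets formed smaller sites: miR-31 had 6 chimeras at chr14:34448384-34448416 and let-7 6 at chr14:34477448-34477522.

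The type II receptors bind ligand and are constitutively active kinases. Tgfbr2 (chr9:116087695-116175363), which binds TGF-beta itself, was led in every pool by the miR-17 family (miR-17, miR-20a, miR-93 and miR-106b). These had 9 of 18 reads in the set 1 DKO pool and 22 of 53 in its control, and 32 of 108 in the set 2 DKO pool and 64 of 161 in the induced pool, against 45 of 132 in the uninduced control. In the uninduced control that was 34.1% of Tgfbr2 reads (26.1 to 42.8), against 3.05% of the pool's reads, and 25 of 3462 genes had a higher share. All 4 miRNAs contributed, with 69 reads of miR-17, 44 of miR-20a, 35 of miR-93 and 24 of miR-106b.

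Nearly all of these reads met Tgfbr2 at 1 place. Of 172 miR-17 family reads, 165 lay at chr9:116090041-116090118, 2384 bases from the gene's end, as 96 chimeras. All 96 covered the 5 bases chr9:116090083-116090087. Of the 165 reads, 9 were from the set 1 DKO pool and 22 from its control, and 30 were from the set 2 DKO pool, 61 from the induced pool and 43 from the uninduced control. miR-182 had 20 chimeras there, all covering chr9:116090083-116090102, and miR-96, with the near-identical seed, had 9 covering chr9:116090073-116090105. miR-130a/miR-301a had 13, covering chr9:116090072-116090088. miR-21a lay further upstream, with 8 chimeras covering chr9:116090131-116090150. The whole site, chr9:116089918-116090237, held 299 reads and 199 chimeras of 30 families, which is 55.4% (50.1 to 60.6) of all chimeras on the gene.

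Elsewhere on Tgfbr2 the second site, chr9:116090296-116090387, held 14 chimeras, 8 of them with miR-31. By mean share over pools, miR-467c-5p (8 reads, 5 of them in the set 1 DKO pool) and miR-31 (29 reads) followed the miR-17 family. miR-182 had 33 reads and miR-21a 29, and like miR-31 they had none in the set 1 DKO pool; they are named here after their values were seen. Only 6 reads lay where the noncoding RNA Gm31292 overlaps the gene.

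On Bmpr2 (chr1:59764279-59878081), the type II receptor for BMPs, miR-125a/b led with 27 of 248 reads, followed by mean share over the pools by miR-31 with 16 and miR-23a with 19; the miR-200b seed had 17 reads. miR-125a/b held 18.2% of induced (10.8 to 27.8) and 14.3% of uninduced Bmpr2 reads (6.38 to 26.2), against 5.25% and 5.52% over these pools. Of its 27 reads, 21 lay at chr1:59876133-59876202, where they formed 10 chimeras. Of these 21 reads, 14 were from the induced pool and 5 from the uninduced control. In the same 74 bases, chr1:59876129-59876202, the miR-200b seed had 5 chimeras, 3 reads induced and 2 uninduced. The second site, chr1:59875715-59875836, held 10 chimeras, 8 of them with miR-23a.

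Acvr2b (chr9:119401583-119442148), a type II receptor for activins and related ligands, was led by let-7 with 20 of 117 reads. The let-7 reads numbered 6 of 10 in the set 1 DKO pool and 2 of 17 in its control, and 3 of 18 in the set 2 DKO pool and 4 of 39 in the induced pool, against 5 of 33 in the uninduced control. The leading site, chr9:119434586-119434698, held 13 chimeras, 9 of them let-7, and 6 of its 14 reads came from the set 1 DKO pool. miR-21a had 13 reads, 10 induced and 3 uninduced, and 12 of them lay at the second site, chr9:119440283-119440340, which held no other miRNA in its 8 chimeras. miR-1191 had 11 reads, all at chr9:119417833-119417907, whereas it made up 0.0188% of the uninduced pool.

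**Figure D2:**
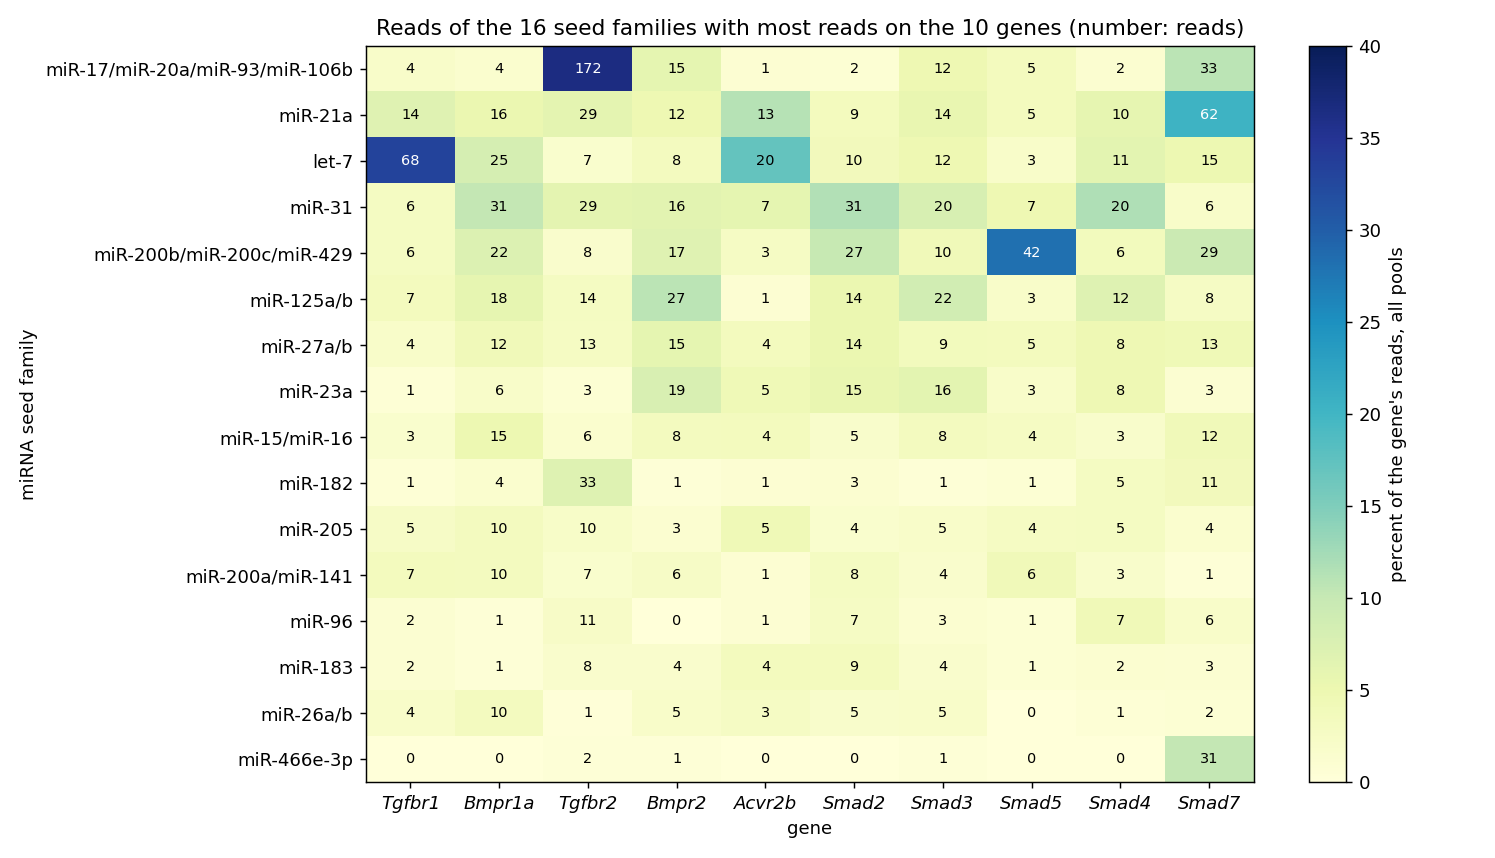
Percent of each gene's reads (colour) and reads (number) for the 16 seed families with most reads on the 10 genes, summed over all pools. The darkest cells are the miR-17 family on Tgfbr2 (172 reads), let-7 on Tgfbr1 (68) and the miR-200b seed on Smad5 (42).

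The receptor-regulated Smads carry the signal, Smad2 and Smad3 for TGF-beta and activin and Smad5 for BMP. Smad2 (chr18:76241090-76311748) had reads of many miRNAs in many places. miR-31 held 31 of its 271 reads and let-7 10, with 2 let-7 reads in each pool, and miR-18a, whose seed differs from that of miR-17 by A4G, held 7. Its leading site, chr18:76282027-76282117, had 9 chimeras, 7 of them let-7, and the second, chr18:76272345-76272407, had 8 chimeras of 7 families. The miR-200b seed held 27 reads, 15 induced and 11 uninduced, which were named after their values were seen.

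Smad3 (chr9:63646766-63757994) had reads along most of its span, and its leading site held 2.17% of its chimeras. By mean share over the pools its top families were miR-125a/b with 22 of 256 reads, miR-31 with 20 and let-7 with 12; miR-23a had 16 reads and miR-21a 14. No family had a site of 5 chimeras, and 123 of its 165 sites were a single chimera. The sites with most chimeras held 5 each: chr9:63725653-63725710, with miR-23a in 3, and chr9:63741161-63741257, with 5 families. A noncoding RNA, Gm51710, overlaps 9 of its reads.

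Smad5 (chr13:56703010-56742378) met the miR-200b seed mostly at 1 place, and had 6 reads of the miR-200a/miR-141 seed besides. The seed of miR-200b (shared with miR-429 and miR-200c) held 42 of its 149 reads: 0 of 6 in the set 1 DKO pool and 0 of 23 in its control, and 1 of 23 in the set 2 DKO pool and 25 of 56 in the induced pool, against 16 of 41 in the uninduced control. All 3 miRNAs took part, with 15 reads of miR-200b, 14 of miR-429 and 13 of miR-200c. Of the 42 reads, 38 lay at chr13:56727392-56727473, where all 27 chimeras covered chr13:56727406-56727423. That place is 14958 bases from the end of the gene's span, unlike the leading sites of Tgfbr1, Tgfbr2 and Smad7. Of all 30 chimeras at the site, 90.0% (73.5 to 97.9) carried that seed.

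The other Smad5 families had few reads. miR-23a had 3, all in the set 1 DKO pool, and miR-3470a, one of the 9 names that set 1 holds in excess, had 8, of which 6 were from the set 1 control. miR-7056 made up the second site, chr13:56708989-56709052, with all 8 chimeras and 12 reads, 7 of them from the set 1 control. Over the whole series miR-7056 made up 0.00321% of reads.

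Smad4 (chr18:73634790-73703791), the Smad shared by TGF-beta and BMP signaling, was led by miR-31 with 20 of 172 reads, 6 of them in the induced pool and 9 in the uninduced control. Its leading site, chr18:73668809-73668837, held 7 chimeras, 5 of them with miR-31, and the second, chr18:73658778-73658811, held 5, with miR-31 in 3. By mean share over the pools miR-182 and miR-193a came next, with 5 reads each, since 1 read of each was among the 3 of the set 1 DKO pool; miR-125a/b had 12 reads, let-7 11 and miR-21a 10.

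Smad7 (chr18:75367365-75395935), the inhibitory Smad that TGF-beta induces and that blocks the type I receptor, held several families close together at its end. miR-21a led with 62 of 305 reads: 2 in the set 1 DKO pool and 3 in its control, and 15 in the set 2 DKO pool and 19 in the induced pool, against 23 in the uninduced control. It made up 21.3% (14.0 to 30.2) of uninduced Smad7 reads, against 8.44% over the pool, and 53 of 3462 genes had a higher share. The miR-17 family held 33 reads, and miR-466e-3p 31, with 7 miR-466e-3p reads in the set 1 DKO pool. In the uninduced control miR-466e-3p made up 11.1% of Smad7 reads, against 0.189% over the pool, and 1 gene had a higher share.

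The leading Smad7 site, chr18:75395635-75395882, held 148 reads and 106 chimeras of 24 families, 44.0% (37.6 to 50.5) of those on the gene. miR-21a (10 chimeras, at chr18:75395711-75395761), miR-466e-3p (19 chimeras, all 31 of its Smad7 reads, at chr18:75395711-75395781) and the miR-200b seed (9 chimeras, at chr18:75395647-75395759) overlapped one another. At the same place miR-466d-3p, counted by name, had 7 chimeras and 11 reads (chr18:75395711-75395771). The 26 miR-17 family chimeras covered chr18:75395772-75395793, just downstream. The second site, chr18:75395490-75395574, held 26 chimeras, 23 of them with miR-21a (88.5%, 69.8 to 97.6), and had reads in all 5 pools. Further upstream a site at chr18:75393937-75394028 held 9 let-7 chimeras of 12, and 1 at chr18:75395135-75395227 held 8 of the miR-200b seed of 12. Of the gene's reads, 47 lay where the noncoding RNA Gm41776 overlaps it.

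**Figure D3:**
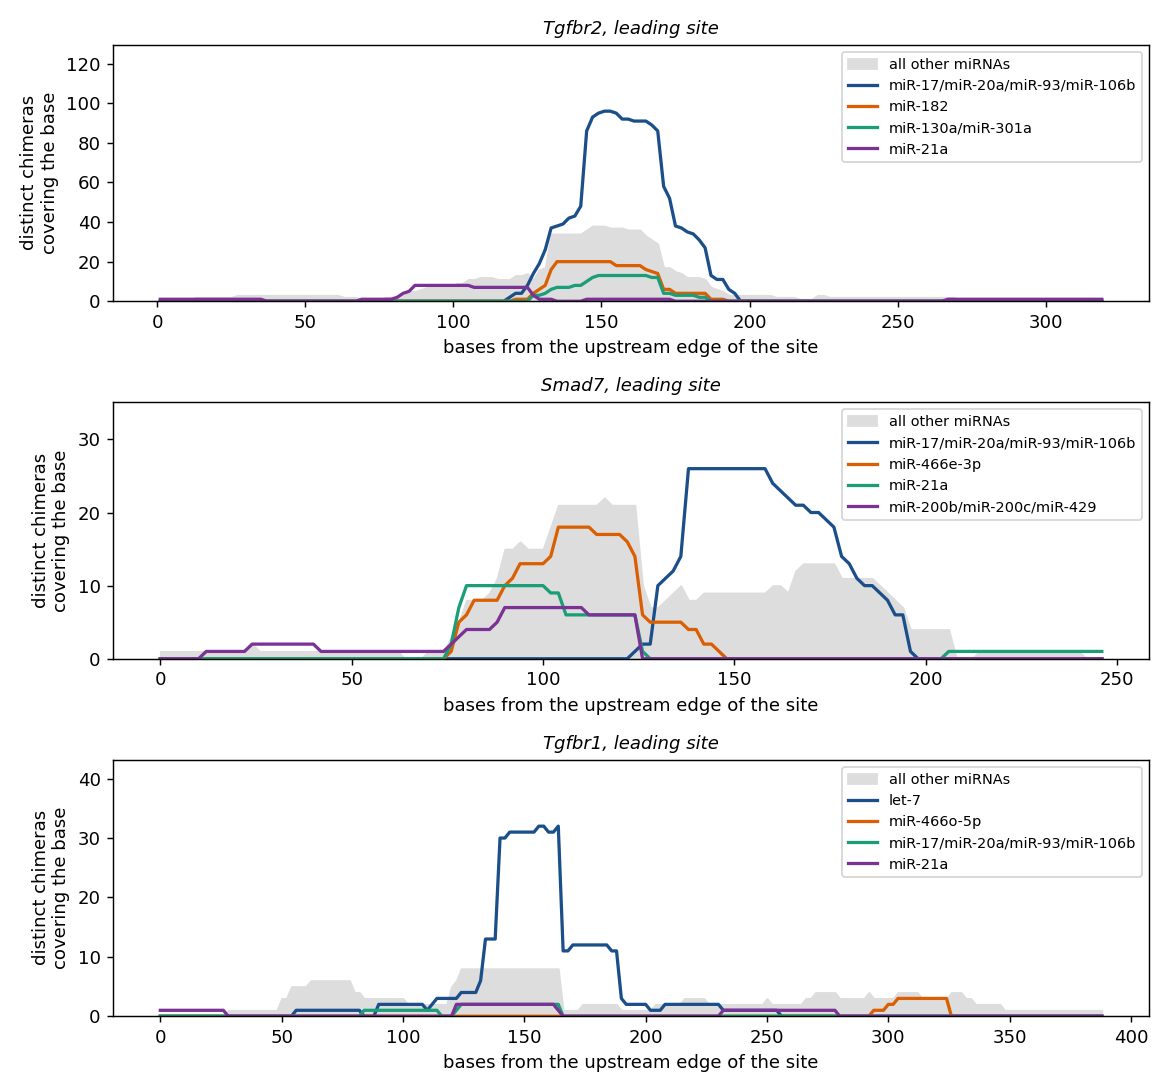
Distinct chimeras (y axis) covering each base of the leading site on Tgfbr2, Smad7 and Tgfbr1, counted from the site's upstream edge (x axis, bases, all pools), with the 4 families of most chimeras in the site as lines and all others shaded. The 96 miR-17 family chimeras on Tgfbr2 share 1 summit with miR-182 and miR-130a/miR-301a, whereas on Smad7 the 26 miR-17 family chimeras lie downstream of miR-466e-3p and miR-21a.

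The genes fell apart by how far their reads concentrated. Of 992 groups of overlapping targets on the genes' strands, 682 were a single chimera and 50 held at least 5. The leading site held 55.4% of chimeras on Tgfbr2, 44.0% on Smad7, 43.7% on Tgfbr1 and 25.2% on Smad5, and between 2.17% and 13.0% on the other 6 genes. Targets were also grouped for each family alone, so that families meeting at 1 place counted separately. Of 45 such family groups with at least 5 chimeras, 30 had reads in both sets. Of the sites of any miRNA, 5 had reads in all 5 pools (2 of them on Smad7, and 1 each on Tgfbr1, Bmpr1a and Tgfbr2). The reads within 10 kb of the gene's end made up 83.3% on Smad7, 78.0% on Tgfbr2, 76.7% on Tgfbr1, 65.0% on Acvr2b and 64.5% on Bmpr2, but 33.6% on Smad2, 27.2% on Bmpr1a, 26.2% on Smad4, 20.8% on Smad5 and 5.08% on Smad3. For comparison, the median over 1614 protein-coding genes with at least 100 reads, a listed strand and a span at least as long as that of Smad7 was 22.0% (quartiles 9.03% and 41.8%), and 8 of the 10 genes lay above it. That window is 35.0% of the Smad7 span and 8.79% to 25.4% of the others. Exons were not used here, so reads were not sorted into untranslated, coding and intronic parts.

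**Figure D4:**
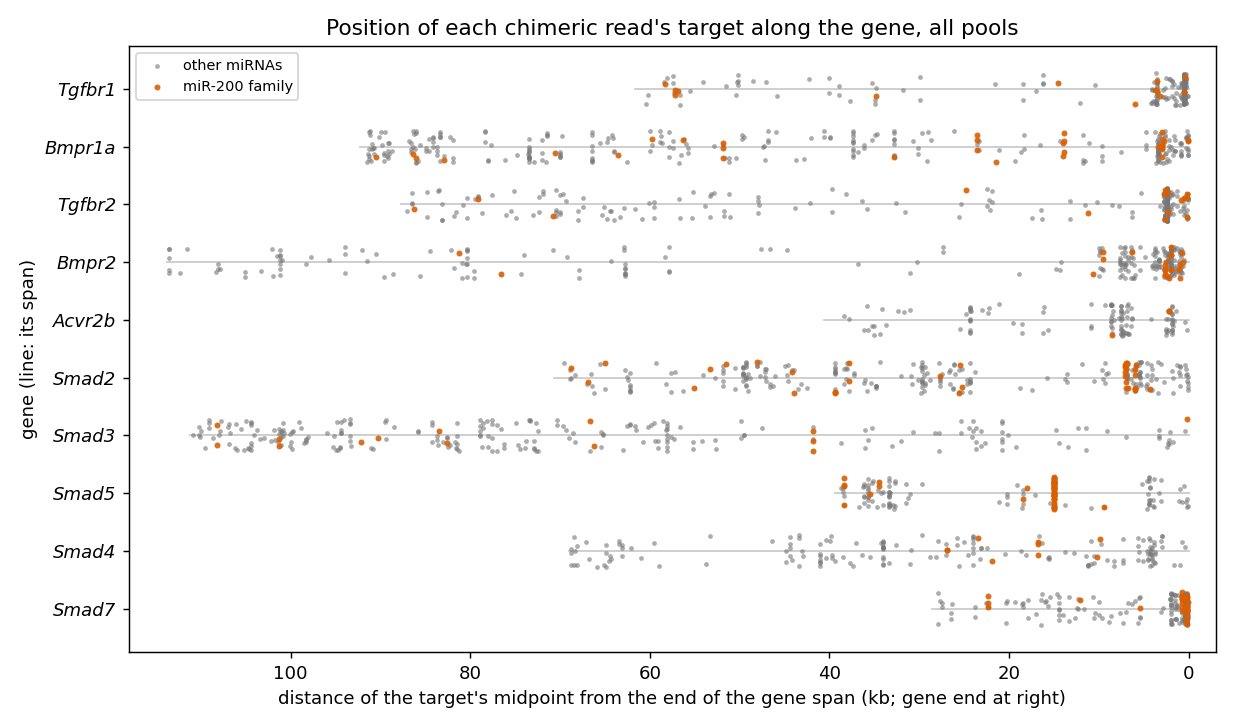
Each point is the target of 1 chimeric read on the gene's strand, placed by its distance from the end of the gene span (x axis, kb), for all pools; grey lines are gene spans, height within a line is random, and orange marks the miR-200 family. Tgfbr1, Tgfbr2 and Smad7 crowd at the end, Smad3 does not, and the orange column on Smad5 lies 14958 bases from its end.

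The first comparison asks whether the genes' share of miRNA-bound reads differed in cells without the miR-200 family. In set 1, 8 of the 10 genes had at least 20 reads in the DKO and control pools together, and 2 of them passed a 2-fold difference in share. Over all genes with that many reads, 26.9% (637 of 2366) passed it, so that 2 of 8 is near the background. Smad7 was higher, with 18 reads in the DKO pool (3.70 per 10000) against 21 in the control (1.30 per 10000), a ratio of 2.85 (1.43 to 5.61). Smad2 was lower, with 4 reads in the DKO pool (0.822 per 10000) against 43 in the control (2.66 per 10000), a ratio of 0.309 (0.0806 to 0.850). Acvr2b lay just inside the threshold at 1.95 (0.800 to 4.52), with 10 DKO and 17 control reads. The DKO pool is the smallest of all, and Tgfbr1 and Smad4 had 2 and 3 DKO reads, against 12 and 15 control reads, too few to compare.

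In set 2 none of the 10 genes passed 2-fold between the DKO and uninduced pools, while 21.8% (1078 of 4951) of all genes did. Their ratios ran between 0.730 for Smad2 and 1.53 for Tgfbr1, with a median of 0.899, against 1.01 over all genes. Tgfbr1 had 50 reads in the DKO pool (2.38 per 10000) and 49 in the uninduced control (1.56 per 10000), and its interval (1.01 to 2.31) lay above 1. Smad7, higher in set 1 DKO cells, had 53 reads in the set 2 DKO pool (2.52 per 10000) and 108 in the uninduced control (3.44 per 10000), a ratio of 0.734 (0.518 to 1.03). Tgfbr2, with most reads, had 108 DKO and 132 uninduced reads and a ratio of 1.22 (0.940 to 1.59). For the 10 genes together the DKO ratio was 0.987 (0.771 to 1.25) in set 1 and 0.975 (0.866 to 1.10) in set 2. No family on a single gene with at least 20 reads passed 2-fold the same way in both DKO comparisons. Only the miR-17 family on Tgfbr2 had that many reads in the set 1 pools (9 DKO and 22 control). No other family could therefore have met this rule.

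The last comparison sets induced against uninduced cells. Again none of the 10 genes passed 2-fold, beside 5.68% (335 of 5902) of all genes, and the 10 together had a ratio of 0.987 (0.894 to 1.09). The median of their ratios was 0.985, against 1.03 over all genes. Tgfbr1 was the highest, with 93 reads in the induced pool (2.22 per 10000) and 49 in the uninduced control (1.56 per 10000), a ratio of 1.42 (0.996 to 2.05). Smad7 was the lowest, with 105 induced reads (2.51 per 10000) and 108 uninduced reads (3.44 per 10000), a ratio of 0.729 (0.552 to 0.962). Both set 2 comparisons share the uninduced pool, so its Tgfbr1 and Smad7 values enter both.

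**Figure D5:**
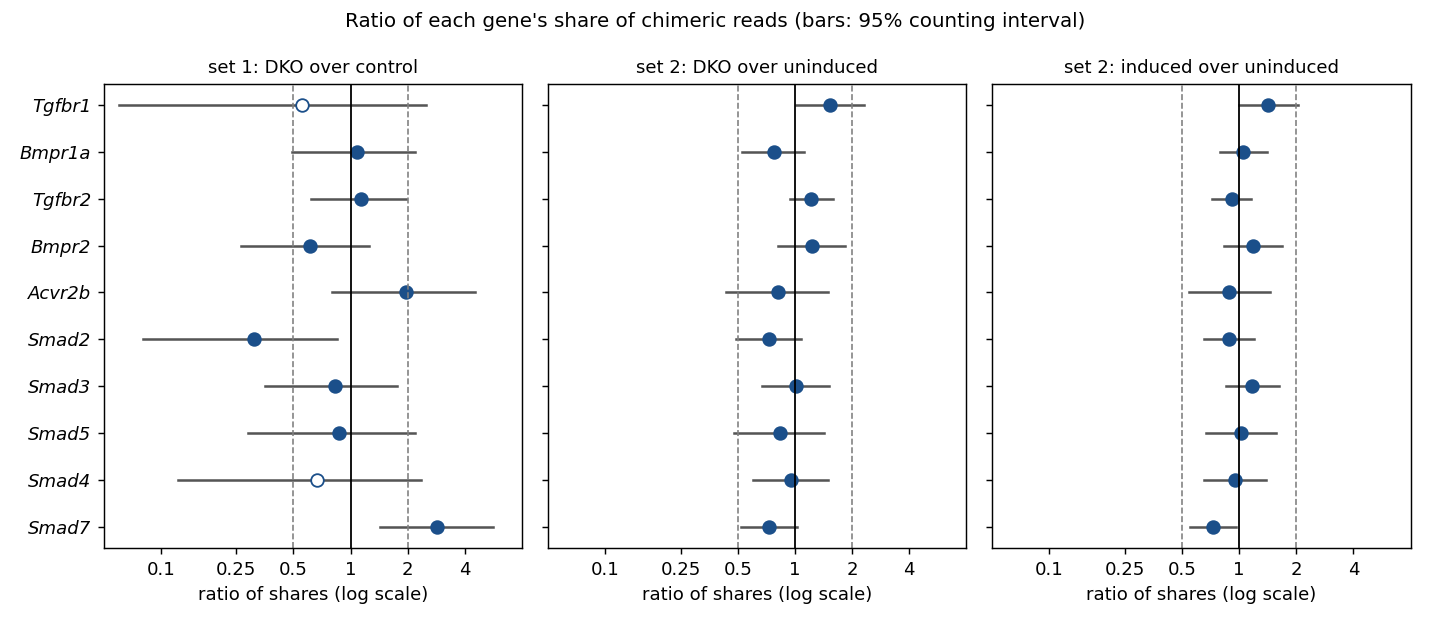
Ratio of each gene's share of chimeric reads (x axis, log scale) for DKO over control in set 1, DKO over uninduced control in set 2 and induced over uninduced control in set 2, with 95% counting intervals. Open points have fewer than 20 reads in the pools compared and dashed lines mark 2-fold; Smad7 (2.85) and Smad2 (0.309) pass it in set 1 and no gene does in set 2.

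The miR-200 family's own reads on the 10 genes were nearly absent from the DKO pools. It had 0 of 90 reads in the set 1 DKO pool, for which a floor of 3 reads is 3.33% and the exact upper limit 4.02%, against 15 of 303 in its control (4.95%, 2.80 to 8.03). In set 2 it had 5 of 463 DKO reads (1.08%), 4 of which had an identical read in another pool of the set, and 129 of 935 induced reads (13.8%, 11.7 to 16.2), against 74 of 710 uninduced reads (10.4%, 8.27 to 12.9). In the set 2 DKO pool the share of miR-200 reads on the genes was 0.101 times that of the uninduced control (0.0319 to 0.247), while that of all other miRNAs was 1.08 times (0.953 to 1.22). These are shares of all reads of a pool, of which the family made up 0.360% and 6.68%. With the family left out of the totals too, the ratio for other miRNAs was 1.01 (0.893 to 1.14). In induced cells the miR-200 reads were 1.31 times those in uninduced cells (0.974 to 1.76), an interval that includes 1. In the induced and uninduced pools the family's share on the 10 genes lay above that of the whole pool, 9.04% and 6.68%.

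Of the single genes, Smad5 had the highest miR-200 share of its own reads in these 2 pools: 31 of 56 induced reads (55.4%, 41.5 to 68.7) and 16 of 41 uninduced reads (39.0%, 24.2 to 55.5), shares above those of 99.6% and 99.1% of genes. Of the family's reads on the 10 genes, Smad5 held 31 of 129 induced and 16 of 74 uninduced. Smad2 followed in share with 20 of 99 induced (20.2%) and 14 of 84 uninduced reads (16.7%). These were the 2 of 10 genes whose miR-200 share was at least 2 times that of the pool, in each of these pools, beside 13.0% of genes in the induced and 14.1% in the uninduced pool. In the set 1 control, 3 of the 7 genes with at least 20 reads passed it, beside 19.7% of genes. They were Bmpr1a with 6 of 34 reads (17.6%, 6.76 to 34.5), Bmpr2 with 5 of 49 (10.2%, 3.40 to 22.2) and Smad7 with 2 of 21 (9.52%, 1.17 to 30.4). The Smad7 value lies under a floor of 3 reads (14.3%), and its interval includes the 3.20% of the set 1 control pool. Smad5 had 0 of 23 reads there, for which a floor of 3 reads is 13.0% and the exact upper limit 14.8%. In the induced pool these 3 genes had 20 of 125, 13 of 88 and 14 of 105 miR-200 reads, less than 2 times that pool's higher share.

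On Smad2 the set 2 DKO pool had 0 miR-200 reads of 41, against 14 of 84 uninduced, and on Smad5 it had 1 of 23, against 16 of 41. Reads of other miRNAs on these genes had ratios of 0.876 (0.581 to 1.31) and 1.32 (0.707 to 2.43). With the family left out of the pool totals too, these ratios were 0.820 (0.544 to 1.22) and 1.23 (0.663 to 2.28). Between induced and uninduced cells, Bmpr1a had 20 against 4 miR-200 reads, a ratio of 3.75 (1.26 to 15.1), with 105 against 85 reads of other miRNAs. Smad5 had 31 against 16, a ratio of 1.45 (0.770 to 2.84), and Smad7 had 14 against 13. On Tgfbr1, the set 2 DKO reads of other miRNAs were 50 against 44 uninduced reads, a ratio of 1.70 (1.11 to 2.61). Without the family in the totals it was 1.59 (1.04 to 2.44).

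Over the 10 genes, miR-17 family reads made up 10.0% of reads, against 3.03% of all reads in the series, and 172 of these 250 lay on Tgfbr2. The miR-200b seed made up 6.80%, against 3.71%, and 42 of its 170 reads lay on Smad5. miR-21a was close to its general share (7.36% against 7.08%), and miR-31 and let-7 lay below theirs (6.92% against 9.39%, and 7.16% against 8.65%).

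Of 45 other genes of the pathway (ligands, receptors, Smads, regulators and targets), 18 had at least 20 reads in the set 1 pools, and 4 were higher and 3 lower by 2-fold in DKO cells. In set 2, 24 reached the minimum and 7 were higher and 3 lower in DKO cells. Over all genes the share past 2-fold was 26.9% in set 1 and 21.8% in set 2. Between induced and uninduced cells 21 reached the minimum and none passed 2-fold, beside 5.68% of all genes. The median ratios were 0.969, 0.972 and 0.907, against 0.886, 1.01 and 1.03 over all genes. By mean share over the pools the leading genes were Ccn2, a secreted matricellular protein induced by TGF-beta, Pmepa1 and Ski, which restrain Smad signaling, Smurf1, a ubiquitin ligase, and Cdkn1a, a cell cycle inhibitor.

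Ccn2 had 78 reads in the set 1 DKO pool and 285 in its control (ratio 0.909, 0.699 to 1.17), and 360 in the set 2 DKO pool against 74 in the uninduced control (ratio 7.28, 5.65 to 9.48). Pmepa1 had ratios of 1.68 and 0.928 in DKO cells of sets 1 and 2, Smurf1 1.00 and 0.839, Ski 0.658 and 1.16, and Cdkn1a 5.40 and 0.479. The difference between the sets was not tested for Ccn2 or Cdkn1a, and the control cells are not the same in both sets. Smad1, a BMP Smad, was past 2-fold the same way in both DKO comparisons, higher at 2.03 (0.867 to 4.54) in set 1 and 2.19 (1.32 to 3.68) in set 2. The set 1 interval includes 1. Its reads numbered 11 in the set 1 DKO pool against 18 in its control, and 41 in the set 2 DKO pool against 28 in the uninduced control.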

How the data were processed

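Chimeric reads of 18 CLEAR-CLIP libraries were used in 5 pools. In the deposited data the unit is of another kind, a position: the authors list each chimeric read with its mm10 target position, strand, 4-base barcode and miRNA, and pool the libraries of a group. The tools named in the submitters' processing notes are bedtools, cutadapt and Novoalign, without versions, on mm10.

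Reads were assigned by target midpoint to RefSeq spans of the same build. miRNAs were grouped by bases 2 to 8 of the RefSeq mature sequence (1512 of 1797 names, 87.1% of the genes' reads), otherwise by name. A miRNA grouped by name was counted apart from families whose seed it may share, as miR-23b-3p was from miR-23a. Counts of families can therefore be too high, and reads of a family too low. Gene strands came from RefSeq for 7 of the 10 genes and from the strand of nearly all reads for Smad2, Smad4 and Smad7. Sites are overlapping targets on the gene's strand. Shares have Clopper-Pearson 95% intervals and ratios of shares conditional exact intervals. A ratio was called at 2-fold with at least 20 reads in the pools compared, as no test between pooled groups was possible. A floor of 3 reads is 0.000716% to 0.00616% of a pool. The ratio calculation was tested on simulated data. Python 3.11.15, pandas 2.3.3, numpy 2.4.6, scipy 1.17.1 and matplotlib 3.10.9 were used.

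All 10 genes were named, with per gene the 3 seed families of highest mean share over the pools and the 2 sites with most chimeras (at least 5), and of 45 other pathway genes the 5 with the highest mean share and those past 2-fold the same way in both DKO comparisons. The members and lists were chosen with earlier results of these data known. Alternatives changed the counting of reads, strands, totals and thresholds. Seed matches and exon classes were not analysed here. Of the other pathway genes that this rule names, 1 is not reported here.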

Additional observations from a re-analysis of the deposited data

Results flagged for a closer look

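The Smad7 ratios of the DKO comparisons lay on opposite sides of 1, with a ratio of 2.85 for DKO over control in set 1 and 0.734 for DKO over uninduced control in set 2. The difference was not tested, since each group is 1 pooled sample. The set 1 value rests on 18 DKO and 21 control reads, and 7 of the DKO reads named miR-466e-3p, against 4 of the control reads. A further 3 of the DKO reads named miR-466d-3p, against 0 of the control reads. For miR-21a the reads were 2 and 3, and for the miR-17 family 1 and 2. The control cells also differ between the sets.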

How the results depend on the processing

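The ratio for the 10 genes together stayed between 0.954 and 1.03 (set 1 DKO), 0.919 and 1.01 (set 2 DKO) and 0.963 and 1.00 (induced) under the alternatives run, and the miR-200 share between 4.95% and 5.98% (set 1 control), 13.8% and 15.8% (induced) and 10.1% and 11.6% (uninduced). The number of genes past 2-fold in set 1 DKO cells, 2, became 4 without reads shared with another pool of the set (Bmpr2 at 0.424 and Acvr2b at 2.14 were added), 4 at a fold of 1.5, 3 when each position was counted once (Acvr2b at 2.59), without marked read names (2.12) or with the total of reads in exactly 1 protein-coding gene (2.01), and 0 at a minimum of 50 reads, which no called gene reached. In set 2 DKO cells a fold of 1.5 gave 1 gene in place of 0, Tgfbr1. Libraries could not be left out in turn. No paired analysis was possible because the libraries of a group are pooled without names. Depth limits the set 1 DKO pool most, with 2 to 18 reads a gene.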
